A study of Mus musculus with 26 samples.

Results

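The genes described here are the 58 mouse genes for Wnt ligands, their receptors, the machinery that secretes them, the R-spondins and the secreted or membrane antagonists, picked by symbol from the 55487 genes of each count table. They comprised 18 ligands, 18 receptors, 2 secretion genes, 4 R-spondins and 16 antagonists. The study carries a question on Wnt signalling in its title and compared the frontal cortex of adolescent littermates that were heterozygous for a frameshift variant of Adnp (HET, labelled Mutant) or wild type (WT, labelled Wild-Type). Adnp encodes a homeodomain and zinc finger protein of chromatin complexes. RNA sequencing covered 7 HET and 7 WT mice, and chromatin accessibility (ATAC-seq, where a transposase can cut open DNA) came as a single deposited peak list per genotype. Strain, sex and whether tissue was pooled are not given in the labels used here. The RNA came from whole tissue, so fewer cells of a type and less RNA per cell cannot be told apart.

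Wnt proteins are lipid-modified glycoproteins that act over short distances. Porcn attaches the lipid, Wls carries the protein to the cell surface, and a Frizzled receptor paired with Lrp5 or Lrp6 receives it, which keeps beta-catenin from being degraded so that it can act with TCF and LEF factors in the nucleus. Ror1, Ror2 and Ryk carry Wnt signals that do not need beta-catenin, while R-spondins bound to Lgr4, Lgr5 or Lgr6 raise the number of Frizzled receptors on the membrane. Secreted Frizzled-related proteins and Wif1 bind ligands, and Notum removes the lipid. Sclerostin and the Dickkopf proteins other than Dkk3 bind the Lrp co-receptors. In brain the pathway is known for patterning the forebrain, for the growth of dendrites and synapses and, through Wnt7a and Wnt7b, for the vessels of the blood-brain barrier.

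The RNA libraries held 33280785 to 47079906 counts in HET and 32814841 to 48291175 counts in WT. Adnp itself had 5.34, 6.43 and 8.68 CPM (counts scaled to a common library size; lowest, median and highest library) in HET, against 5.67, 6.19 and 7.84 CPM in WT (log2 fold change 0.07, SE 0.13, adjusted p 0.772 in edgeR's quasi-likelihood test). Since mRNA with a frameshift can persist, these values do not test how the mice were labelled. The molecule was labelled total RNA for HET 1 to HET 4 and polyA RNA for the other 10 libraries. Markers of cortical excitatory neurons were present in all 14 libraries, and 0 of the markers searched for were at 0. Their summed level over 10 genes ran from 928 to 5470 CPM in HET (median 3079) and from 2403 to 6557 CPM in WT (median 4870), and HET 4, HET 1 and WT 4 were the lowest libraries with 928, 1658 and 2403 CPM. Summed markers of thalamic neurons (8 genes) ran from 134 to 1572 CPM in HET and from 88.2 to 613 CPM in WT, and were highest in HET 4 and WT 7. Summed striatal markers (11 genes) ran from 259 to 3079 CPM in HET and from 239 to 2194 CPM in WT. These libraries recur below because several Wnt genes moved with them.

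Of the 58 genes, 54 had enough counts to be tested. Wnt10a, a ligand that signals through beta-catenin, fell in HET at an adjusted p under 0.05, and 0 genes rose. Over all 18050 genes tested, 0.97% passed this threshold, so 1 call among 54 is close to the background share. At an unadjusted p under 0.05 there were 11 Wnt genes, 8 higher and 3 lower in HET, or 20.4% of those tested, where the share over all genes was 22.2% (11.8% higher and 10.4% lower). No Wnt gene had all HET libraries on 1 side of all WT libraries, a pattern that 0.715% of all genes showed. A positive fold change was seen for 26 of the 54, against 53.3% of all genes, and the median log2 fold change was -0.01 for the Wnt genes and 0.02 for all genes. The median size of the log2 fold change, sign ignored, was 0.41 for the Wnt genes and 0.15 for all genes. Of the 54, 23 lay in the lowest tercile of RNA level, and these values describe the list without a test. Other tools called more: DESeq2 called 5 Wnt genes (Fzd1, Lgr5 and Wnt5a higher, Dkk3 and Wnt10a lower; 8.9% of all genes were called), and limma-voom with sample weights called 7 (the same 5 with Fzd7 and Sfrp5 higher; 10.7% of all genes). Among the libraries labelled polyA RNA, HET 5 to HET 7 against all 7 WT libraries, 0 of 54 Wnt genes passed the adjusted threshold in edgeR (0.0211% of all genes did) and 5 had an unadjusted p under 0.05; Tnks, described with the rest of the pathway, did not pass the adjusted threshold either. In that comparison the log2 fold change was -1.48 for Wnt10a (SE 0.51, adjusted p 0.429 in edgeR), -1.02 for Dkk3, 1.47 for Sfrp5, 0.41 for Wnt5a, 0.34 for Fzd1 and 0.66 for Lgr5. The HET libraries labelled total RNA have no WT library of that label, so the label and the genotype cannot be told apart there.

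**Figure D1:**
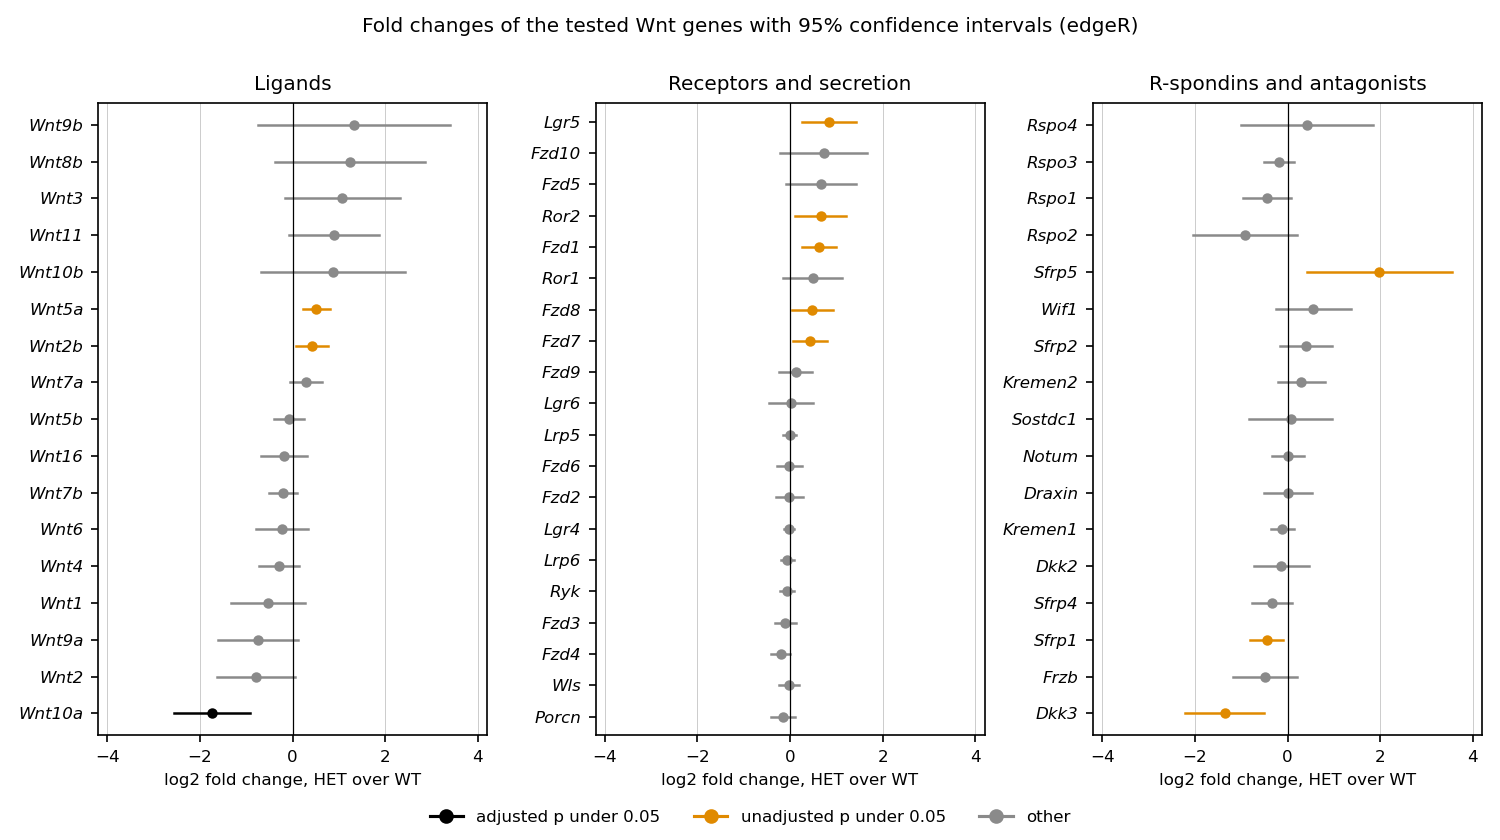
The log2 fold change of each tested Wnt gene, HET over WT, is shown on the x axis as a point with its 95% confidence interval from edgeR, by role. Wnt10a, at -1.73, is the gene drawn in black for an adjusted p under 0.05; the 10 genes in orange had an unadjusted p under 0.05, among them 5 receptors that all lie to the right of 0.

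Levels between genes were compared as RPKM (CPM per kilobase of exon). Dkk3, listed here among the antagonists, was by far the most abundant member, at 39.8 ± 17.0 RPKM in HET and 102.3 ± 49.5 RPKM in WT (SD, n = 7 each). Next came Porcn at 15.8 ± 3.45 RPKM in HET and 17.6 ± 1.496 RPKM in WT, the receptor Fzd3 at 9.02 ± 1.31 and 9.71 ± 1.46 RPKM, and the ligand Wnt7b at 7.72 ± 1.10 and 8.89 ± 2.26 RPKM, each in HET and in WT. The spreads of Fzd3 and Wnt7b overlapped, so their order is not resolved. At the other end, Wnt3a had 0 counts in every HET library and 2 counts each in WT 3 and WT 4. Dkk1 had 2 counts in HET 6 and 4 in HET 7, and Dkk4 2 counts in HET 2 and 1 in HET 5, with 0 in the WT libraries for both. Sost, the sclerostin gene, reached 46 counts in HET 3 and 55 in WT 4 and at most 12 elsewhere. These 4 genes were not tested.

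**Figure D2:**
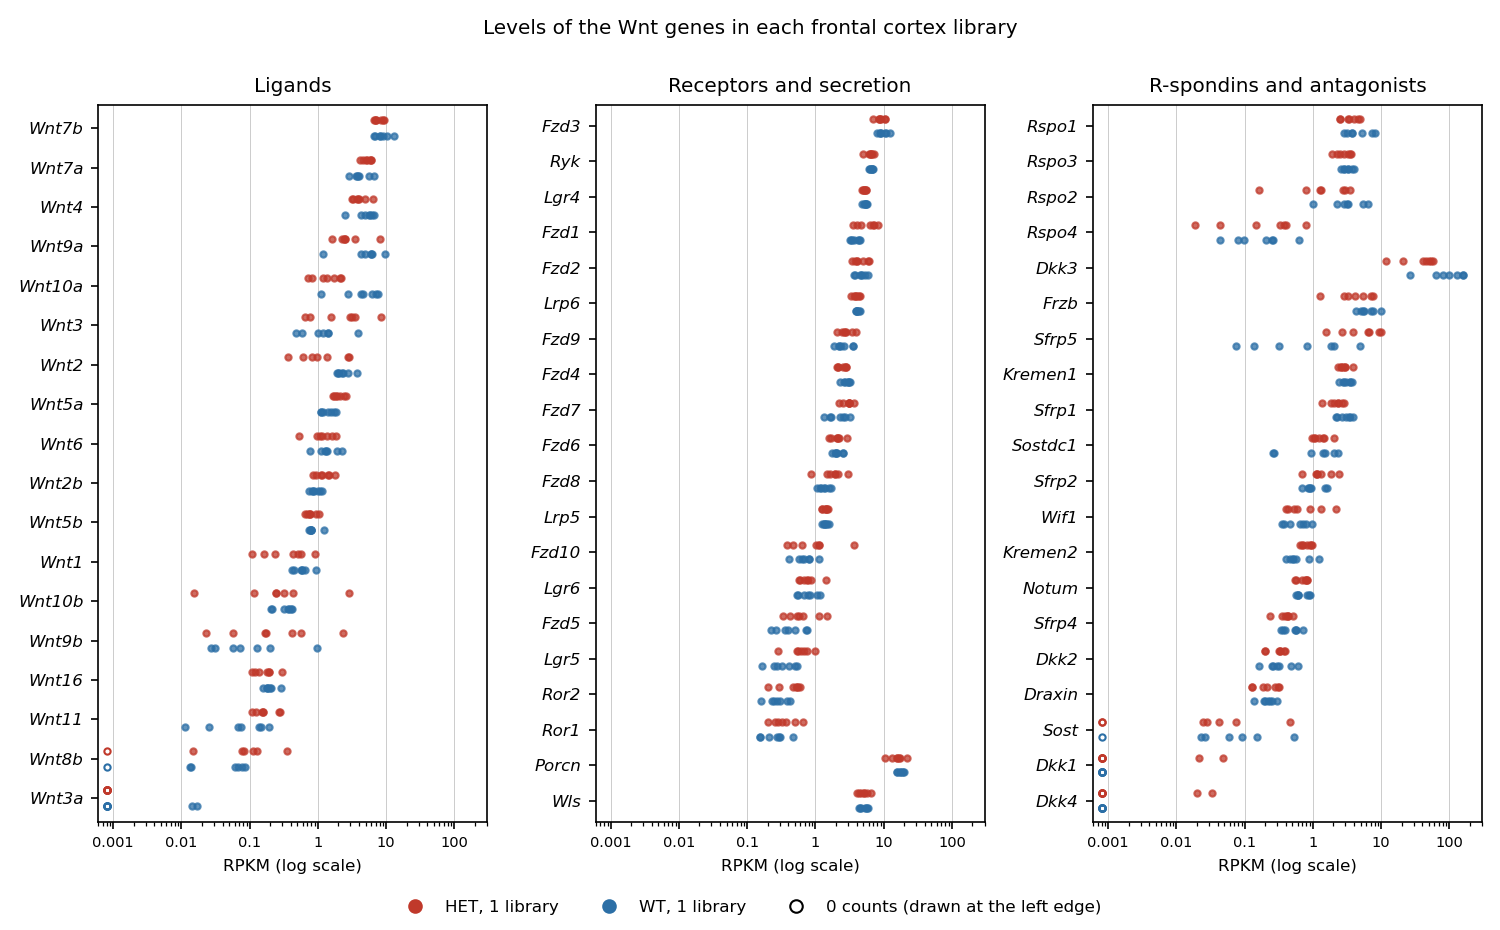
Each point is 1 library's level of 1 Wnt gene in RPKM on a log axis, HET above WT within each gene, with genes ordered by mean level inside each role. Dkk3 stands above all other genes, at 39.8 RPKM on average in HET and 102.3 RPKM in WT, and open points mark libraries with 0 counts.

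Among the ligands, 17 of 18 were tested. Wnt10a fell, and Wnt5a and Wnt2b had an unadjusted p under 0.05 with higher values in HET. Wnt10a (ENSMUSG00000026167, GRCm38 chr1:74791516-74804179, plus strand) had 1.77, 3.35 and 5.43 CPM in HET, against 2.73, 11.2 and 19.0 CPM in WT (lowest, median and highest of 7 libraries each). All 7 HET libraries lay below the WT median, and WT 4, at 2.73 CPM, was the WT library inside the HET range. The fitted level was 3.33-fold higher in WT, a log2 fold change of -1.73 (SE 0.38, 95% confidence interval from -2.55 to -0.92) with an adjusted p of 0.0482 in edgeR. This call did not hold when most single libraries were left out: it stood without HET 5, HET 6 or WT 4 and was lost in the other 11 fits, where the adjusted p reached 0.112, while the log2 fold change stayed between -1.91 and -1.58. Calls over all genes moved too, with 1.32%, 6.09% and 9.18% called without HET 5, HET 6 and WT 4, and 0.0603% to 0.598% in the other 11 fits. In those 11 fits the unadjusted p of Wnt10a in edgeR ran from 0.000366 to 0.00120. Excitatory markers moved with Wnt10a, since the WT libraries with the most Wnt10a (19.0, 17.8 and 15.1 CPM in WT 1, WT 3 and WT 2) had the highest marker sums (6515, 6378 and 6557 CPM). HET 6 did not follow this order: its marker sum of 5470 CPM was above those of WT 5, WT 6 and WT 7 (4870, 4481 and 4189 CPM), and its Wnt10a level of 4.30 CPM was below theirs (11.2, 10.6 and 6.92 CPM). With the excitatory, thalamic and striatal marker means as covariates the log2 fold change of Wnt10a was -0.85 (SE 0.33, adjusted p 0.290), and over 24 alternative fits its adjusted p ran from 0.000272 to 0.429. Without HET 1 and HET 4 it was -1.48 (adjusted p 0.151). With WT 4 left out as well it was -1.66 (adjusted p 0.0127).

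Wnt5a, the main ligand of the Ror receptors (ENSMUSG00000021994, chr14:28504750-28527448, plus strand), had 13.1, 14.7 and 20.3 CPM in HET, against 8.70, 10.8 and 14.3 CPM in WT. All HET libraries were above the WT median and 5 were above the highest WT library. Its log2 fold change was 0.52 (SE 0.14, unadjusted p 0.00180, adjusted p 0.0694 in edgeR). It lay between 0.45 and 0.59 whichever library was left out. Wnt5a was called without WT 4, a fit that called 9.18% of all genes. Wnt2b, a ligand of the beta-catenin branch, had 3.54, 4.89 and 7.38 CPM in HET, against 3.12, 3.68 and 4.87 CPM in WT, with 4 HET libraries above the highest WT library (log2 fold change 0.42, SE 0.16, adjusted p 0.157 in edgeR). The remaining 14 tested ligands had an unadjusted p above 0.05. Averaged over all 14 libraries, Wnt7b and Wnt7a had the highest RPKM among ligands. Wnt7a averaged 5.29 RPKM in HET, next after Wnt7b, and 4.34 RPKM in WT, where Wnt9a (5.45), Wnt4 (5.13) and Wnt10a (4.83) averaged more. Wnt7b had 32.4, 34.8 and 45.5 CPM in HET, against 32.5, 39.7 and 64.3 CPM in WT, with a 95% interval of the log2 fold change from -0.50 to 0.10. Wnt7a had 13.3, 16.6 and 19.3 CPM in HET, against 9.10, 12.4 and 21.3 CPM in WT. Each HET library exceeded the WT median of Wnt7a, yet WT 4 was the highest library of all (log2 fold change 0.28, SE 0.16, adjusted p 0.310 in edgeR).

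Several ligands were set by 1 or 2 libraries. Wnt3 and Wnt9b are neighbours on chromosome 11, 24.3 kb apart on opposite strands, and both were highest in the same libraries. Wnt3 had 26.0 CPM in HET 4 where the other HET libraries had 1.98 to 10.6 CPM, and 12.01 CPM in WT 7 where the other WT libraries had 1.45 to 4.34 CPM. Wnt9b had 10.4 CPM in HET 4 and 4.33 CPM in WT 7, and at most 2.55 CPM in any other library. HET 4 and WT 7 were also the highest libraries in summed thalamic markers, at 1572 and 613 CPM. Summed habenula markers (6 genes, median log2 fold change 1.54, 3 with an unadjusted p under 0.05 and 0 with an adjusted p under 0.05 in edgeR) ran from 17.2 to 90.96 CPM in HET, highest in HET 4, and from 8.85 to 31.5 CPM in WT, highest in WT 7. The log2 fold changes were 1.08 (SE 0.58) for Wnt3 and 1.33 (SE 0.97) for Wnt9b, with adjusted p of 0.286 and 0.438 in edgeR, and the part that thalamic or habenular tissue has in these levels was not tested. Wnt6, which ends 6.19 kb before Wnt10a on the same strand, had 1.16, 2.49 and 3.98 CPM in HET, against 1.66, 2.88 and 4.92 CPM in WT (log2 fold change -0.23, adjusted p 0.641 in edgeR). Wnt10b and Wnt9a were highest among HET libraries in HET 6, at 9.59 and 26.7 CPM, where oligodendrocyte markers were lowest of all libraries (2433 CPM summed, against 4703 CPM or more elsewhere). HET 6 was also the highest of all libraries in choroid plexus markers, at 1021 CPM summed, and the highest HET library in excitatory markers, at 5470 CPM. Its Wnt9a level lay inside the WT range, and the other 6 HET libraries were below the WT median. Wnt9a had 5.42, 8.25 and 26.7 CPM in HET, against 3.95, 19.7 and 32.1 CPM in WT (log2 fold change -0.74, SE 0.40, adjusted p 0.292 in edgeR).

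All 18 receptors were tested. None passed the adjusted threshold, 5 had an unadjusted p under 0.05 and each of these 5 was higher in HET, where 22.2% of all genes passed in either direction and 11.8% were higher. They were 3 Frizzled genes (Fzd1, Fzd7 and Fzd8), the R-spondin receptor Lgr5 and the Wnt5a receptor Ror2. Fzd1 (ENSMUSG00000044674, chr5:4753839-4758035, minus strand) had 14.8, 26.8 and 35.1 CPM in HET, against 13.3, 15.3 and 18.7 CPM in WT, and 5 HET libraries were above the highest WT library. The fitted ratio of HET to WT was 1.54 for Fzd1 (log2 fold change 0.63, SE 0.18, adjusted p 0.0798 in edgeR). Leaving out HET 5 or HET 6, the HET libraries lowest in Fzd1, brought it past the threshold, in fits that called 1.32% and 6.09% of all genes. Lgr5 (ENSMUSG00000020140, chr10:115450311-115587780, minus strand), which is itself a target gene of beta-catenin signalling, had 2.92, 6.21 and 9.99 CPM in HET, against 1.67, 3.28 and 5.48 CPM in WT. Of the HET libraries 6 exceeded the highest WT library and HET 6 did not, with a log2 fold change of 0.85 (SE 0.27, adjusted p 0.106 in edgeR). Lgr5 overlaps a gene on the other strand, A930009A15Rik (mean 0.354 CPM), and the counts ignored strand, so their reads cannot be told apart there. The same limit holds for the other Wnt genes that overlap a tested gene on the other strand, 7 with Lgr5. They are Wnt5b (Fbxl14, mean 30.4 CPM), Wnt7b (AU022754, 1.49 CPM), Draxin (Mad2l2, 7.86 CPM), Sfrp2, Kremen2 and Notum.

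Ror2 had 0.870, 2.23 and 2.50 CPM in HET, against 0.672, 1.16 and 1.78 CPM in WT (log2 fold change 0.66, SE 0.26, adjusted p 0.157 in edgeR). HET 3 and HET 5 lay inside the WT range and the other 5 HET libraries above it. Fzd7 had 10.1, 14.1 and 16.7 CPM in HET, against 6.13, 10.3 and 14.8 CPM in WT (log2 fold change 0.43, SE 0.18, adjusted p 0.170 in edgeR), and HET 7 was the library above all WT values. Fzd8 had 5.21, 11.4 and 18.2 CPM in HET, against 6.31, 7.87 and 9.97 CPM in WT (log2 fold change 0.48, SE 0.20, adjusted p 0.183 in edgeR). The HET libraries spanned the WT range on both sides, with HET 4 highest and HET 6 lowest of the 14. With the marker means as covariates the log2 fold change was 0.10 for Fzd8, 0.37 for Ror2, 0.40 for Fzd1, 0.41 for Fzd7 and 0.72 for Lgr5. The 2 receptors highest in RPKM averaged over the 14 libraries, Fzd3 and Ryk, had intervals that included 0. Fzd3, known in mice for axon guidance, had 88.1, 113 and 136 CPM in HET, against 102.03, 115 and 156 CPM in WT (95% interval of the log2 fold change from -0.33 to 0.12). Ryk, which also guides axons, had 22.6, 29.2 and 32.6 CPM in HET, against 27.8, 30.3 and 31.8 CPM in WT (from -0.21 to 0.09). The co-receptors Lrp5 and Lrp6 had log2 fold changes of -0.01 (SE 0.07) and -0.06 (SE 0.06), and Lgr4 one of -0.03 (SE 0.05). Summed over the 18 receptors the level was 52.8 ± 3.86 RPKM in HET and 49.6 ± 2.99 RPKM in WT (SD, n = 7 each).

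**Figure D3:**
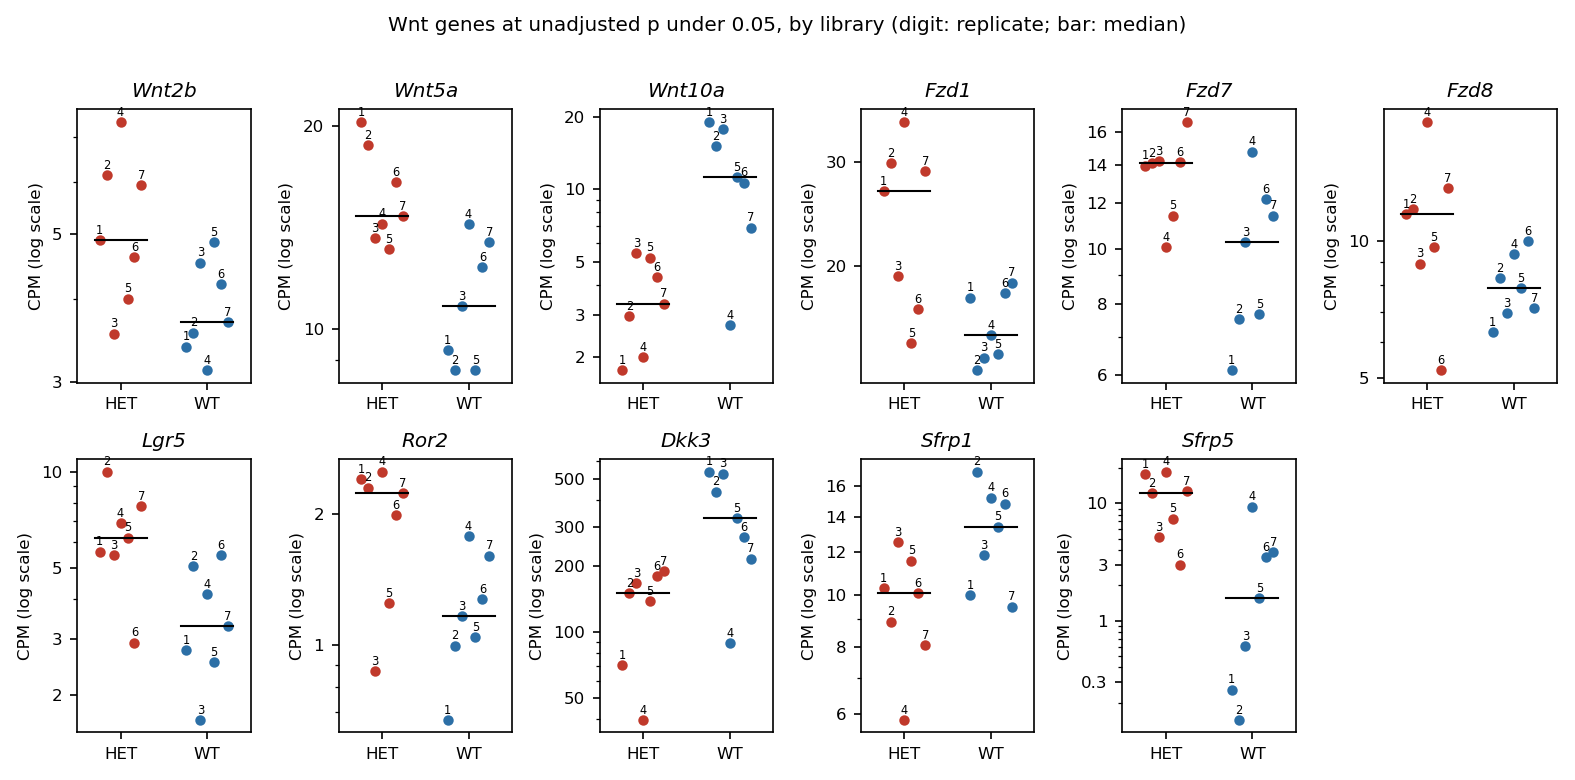
Each panel gives the CPM of 1 Wnt gene with an unadjusted p under 0.05 on a log axis, HET left and WT right, with points for the 7 libraries of each genotype numbered by replicate and a bar at the median. The genotypes overlap in every panel; WT 4 sits inside the HET range for Wnt10a, Dkk3 and Sfrp5, at 2.73, 88.8 and 9.36 CPM.

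Neither secretion gene had an unadjusted p under 0.05. Porcn, the acyltransferase, had 31.7, 47.6 and 64.9 CPM in HET, against 46.8, 52.6 and 58.7 CPM in WT, and its 95% interval of the log2 fold change ran from -0.41 to 0.10. HET 4 was the lowest and HET 6 the highest library. Wls, the transporter, had 35.2, 44.8 and 56.8 CPM in HET, against 38.3, 46.0 and 52.6 CPM in WT (from -0.25 to 0.20). The 4 R-spondins were all tested and none had an unadjusted p under 0.05. Rspo1 had 4.87, 6.59 and 9.36 CPM in HET, against 5.49, 7.27 and 15.5 CPM in WT (log2 fold change -0.44, SE 0.25). Rspo3 had 5.84, 8.76 and 11.2 CPM in HET, against 7.92, 10.05 and 12.5 CPM in WT (log2 fold change -0.18, SE 0.15). Rspo2 was the most variable of the abundant ones, with 0.823, 6.76 and 17.7 CPM in HET, against 5.10, 16.0 and 32.5 CPM in WT. Its lowest value was in HET 4, the library lowest in excitatory markers, and its highest in WT 1 (log2 fold change -0.93, SE 0.52, adjusted p 0.311 in edgeR).

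Of the 16 antagonists, 13 were tested and 0 passed the adjusted threshold; Dkk3 and Sfrp1 were lower and Sfrp5 higher in HET at an unadjusted p under 0.05. Dkk3, a divergent Dickkopf protein (ENSMUSG00000030772, chr7:112116017-112159057, minus strand), had 39.8, 151 and 190 CPM in HET, against 88.8, 331 and 537 CPM in WT. All HET libraries were below the WT median and 5 of them lay between WT 4, at 88.8 CPM, and the next WT library, at 216 CPM. The fitted level was 2.57-fold higher in WT (log2 fold change -1.36, SE 0.40, unadjusted p 0.00408, adjusted p 0.0864 in edgeR), and it was called without WT 4 (-1.53, adjusted p 0.0199). That fit called 9.18% of all genes. The 3 libraries lowest in Dkk3 (HET 4, HET 1 and WT 4, with 39.8, 70.5 and 88.8 CPM) were the 3 lowest in excitatory markers. HET 6 did not follow this order. Its marker sum of 5470 CPM was above those of WT 5, WT 6 and WT 7 (4870, 4481 and 4189 CPM). Its Dkk3 level, at most 190 CPM as in every HET library, was below theirs, at 216 CPM or more. With the marker means as covariates its log2 fold change was -0.30 (SE 0.14, adjusted p 0.362). Without HET 1 and HET 4 it was -1.05 (adjusted p 0.225). With WT 4 left out as well it was -1.22 (adjusted p 0.0213). Dkk3 made up 33.6% to 90.5% of the summed antagonist RPKM of a library, and that sum was 61.4 ± 15.9 RPKM in HET and 122 ± 48.0 RPKM in WT (SD, n = 7 each).

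Sfrp5, a secreted Frizzled-related protein (ENSMUSG00000018822, chr19:42197971-42202252, minus strand), had 3.00, 12.2 and 18.6 CPM in HET, against 0.142, 1.56 and 9.36 CPM in WT. All 7 HET libraries exceeded the WT median and 4 exceeded every WT library, the highest of which was WT 4. The fitted ratio of HET to WT was 3.95 for Sfrp5, with a wide interval (log2 fold change 1.98, SE 0.73, 95% interval from 0.42 to 3.55, adjusted p 0.141 in edgeR). Its order over the libraries ran against the excitatory markers: the lowest Sfrp5 levels, 0.142, 0.259 and 0.604 CPM, were in WT 2, WT 1 and WT 3, the libraries with the highest marker sums, and its highest in HET 4 and HET 1, the libraries with the lowest. With the marker covariates the log2 fold change of Sfrp5 was 1.41 (adjusted p 0.314 in edgeR), and without HET 1 and HET 4 it was 1.54 (adjusted p 0.386). Without WT 4 it was 2.74 and passed the threshold, as did 9.18% of all genes (adjusted p 0.0326 in edgeR, over a range from 0.0196 to 0.644 in 24 alternative fits). Sfrp1 had 5.84, 10.1 and 12.6 CPM in HET, against 9.50, 13.4 and 17.0 CPM in WT. Its HET values were below the WT median in 7 of 7 libraries (log2 fold change -0.45, SE 0.17, adjusted p 0.142 in edgeR), and the value with marker covariates was -0.38 (SE 0.11). Frzb, which belongs to the same family and was next to Dkk3 in RPKM averaged over all 14 libraries (in HET alone Sfrp5 averaged more, 5.77 against 4.52 RPKM), had 4.17, 13.3 and 24.6 CPM in HET, against 13.7, 17.9 and 32.1 CPM in WT (log2 fold change -0.50, SE 0.32, adjusted p 0.382 in edgeR). For Frzb the value was 0.016 with marker covariates and -0.030 among the libraries labelled polyA RNA. The other 9 tested antagonists (Dkk2, Sfrp2, Sfrp4, Wif1, Sostdc1, Kremen1, Kremen2, Notum and Draxin) had log2 fold changes from -0.33 to 0.56 and unadjusted p above 0.05.

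**Figure D4:**
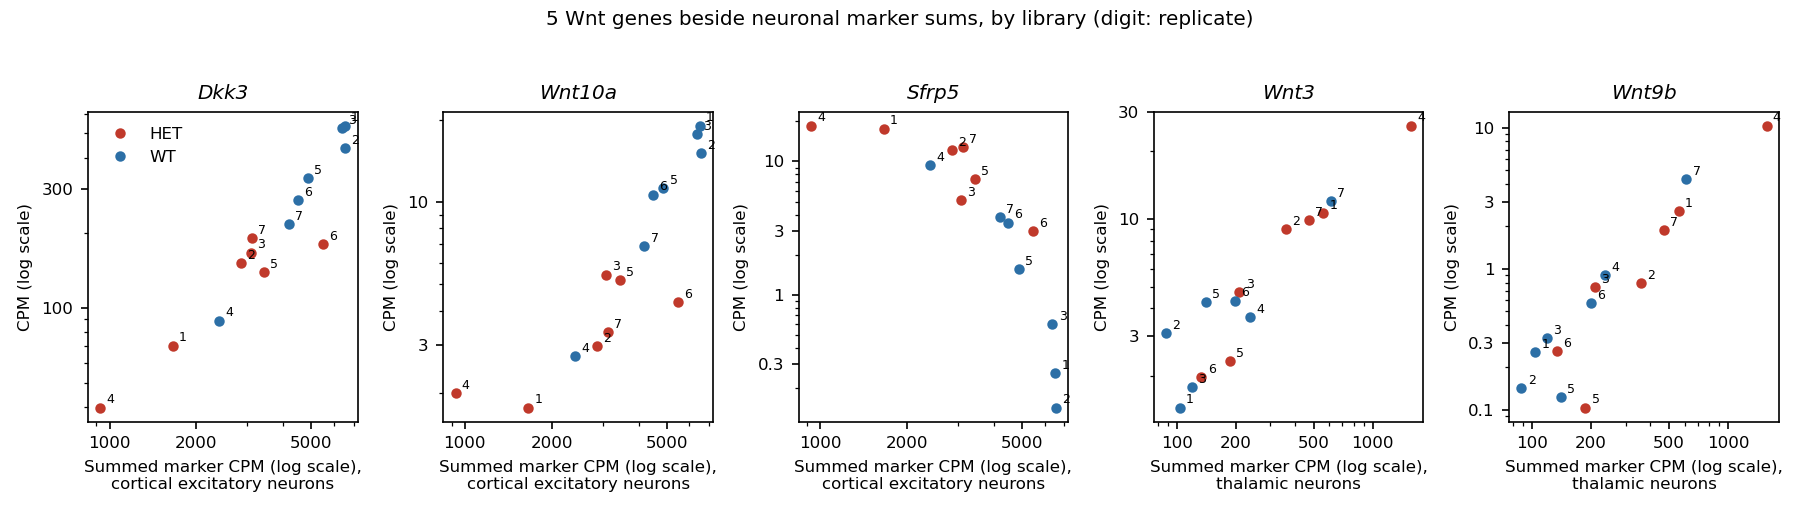
CPM of 5 Wnt genes (y axis, log scale) is plotted against the summed CPM of cortical excitatory or thalamic neuron markers (x axis, log scale) in the 7 HET and 7 WT libraries, numbered by replicate. Dkk3 and Wnt10a are lowest where excitatory markers are low (HET 4 and HET 1). In HET 6 both are below WT 5, WT 6 and WT 7, although its excitatory marker sum is higher. Sfrp5 is lowest where excitatory markers are high (WT 1, WT 2 and WT 3). Wnt3 and Wnt9b are highest in HET 4 and WT 7, which have the most thalamic markers.

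The rest of the pathway was read from 3 lists holding 73 further genes, of which 70 were tested. Tnks rose, and no gene of the lists fell (0.587% of all genes rose and 0.382% fell). Tnks encodes tankyrase, which marks Axin for degradation. It had 134, 145 and 163 CPM in HET, against 112, 119 and 130 CPM in WT, with every HET library above every WT library (log2 fold change 0.28, SE 0.05, adjusted p 0.0352 in edgeR). The call was lost in 9 of 14 fits that left out 1 library and with the marker covariates. Those 9 fits called 0.0603% to 0.159% of all genes and the covariate fit 0.127%. At an unadjusted p under 0.05 there were 22 of the 70 genes (31.4%), 14 higher and 8 lower in HET, where the share over all genes was 22.2%, with 11.8% higher and 10.4% lower. Among cytoplasmic and nuclear components (35 tested, 8 higher and 4 lower), Caprin2, which aids Lrp6 phosphorylation, showed a log2 value of 0.45 for HET over WT (adjusted p 0.0720 in edgeR). The beta-catenin gene Ctnnb1 had 355, 380 and 463 CPM in HET, against 323, 338 and 407 CPM in WT (log2 fold change 0.16, adjusted p 0.212 in edgeR). Among membrane and extracellular regulators (25 tested, 3 higher and 2 lower), the smallest p-values belonged to Igfbp4, a secreted inhibitor of Lrp6 and Frizzled (log2 fold change -1.06, adjusted p 0.0738), and to Prickle1 (-0.54, adjusted p 0.09995) and Vangl2 (0.53, adjusted p 0.108) of the planar polarity branch. Among transcriptional targets and feedback genes, 17 of 21 were tested, with 5 higher and 2 lower. This list overlaps the others. It includes the Wnt genes Lgr5, Notum and Dkk1, which are outside the 73, and repeats Lef1, Tcf7, Znrf3, Rnf43 and Apcdd1. Lgr5 and Lef1 are among its 5 higher genes and were already counted above. The feedback inhibitor Nkd2 had 4.62, 10.6 and 12.9 CPM in HET, against 3.32, 4.64 and 6.69 CPM in WT (log2 fold change 1.00, adjusted p 0.0586), while the log2 values of HET over WT were -0.49 for Tnfrsf19 (adjusted p 0.0528) and 0.68 for Cd44 (adjusted p 0.0802), all in edgeR. Axin2, a widely used reporter of beta-catenin signalling, had 21.0, 24.0 and 27.7 CPM in HET, against 17.9, 21.9 and 27.0 CPM in WT (log2 fold change 0.09, SE 0.10, adjusted p 0.625 in edgeR). The largest log2 fold change among the 70 genes was 2.30 for Tcf7l2 (SE 0.81, adjusted p 0.126 in edgeR). It had 4.40, 59.9 and 261 CPM in HET, against 3.46, 11.0 and 48.1 CPM in WT. Lef1, Sp5 and Ccnd1 had 1.25, 0.91 and -0.26 (adjusted p 0.175, 0.184 and 0.181 in edgeR). Tcf7l2 and Lef1 are also thalamic markers and were left out of that marker sum. Ctnnb1 and Axin2 were picked for their place in the pathway after their values were seen. Tcf7l2, Lef1, Sp5 and Ccnd1 were added for their fold changes.

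Open chromatin at the gene starts was read from the deposited peak lists, with 1 kb to either side counted as the promoter and an overlap of at least 1 base. The HET list holds 30862 peaks with a median width of 423 bases and the WT list 19272 peaks with a median of 490 bases. With 1 list per genotype and no peak height, the difference between genotypes has no replicate check. Of the 58 genes, 19 had a promoter peak in the HET list and 18 in the WT list, where the shares over the 18050 genes with tested RNA were 63.6% and 57.2%. Both lists held a peak at 15 Wnt genes (55.6% of all genes), and 22 had one in either list (65.3% of all genes). Few of the tested Wnt genes lay in the highest tercile of RNA level: 3 of 23 in the lowest tercile had a peak, 13 of 25 in the middle and 6 of 6 in the highest, against 35.6%, 74.8% and 85.4% of all genes in those terciles.

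By role, receptors had a peak in either list in 13 of 18 cases, the secretion genes in 2 of 2, antagonists in 4 of 16 (Frzb, Wif1 and Kremen1 in both lists, and Dkk3), ligands in 3 of 18 (Wnt7b in both lists, Wnt7a and Wnt9a) and R-spondins in 0 of 4. A peak in the HET list alone was found at Fzd2, Fzd9, Lgr5 and Ryk, 4 genes and all receptors (8.08% of all genes), and in the WT list alone at Wnt7a, Wnt9a and Dkk3 (1.62% of all genes). With the HET list cut to its widest peaks in the number of the WT list, 1 of the 58 genes, Lgr5, had a HET peak alone (4.68% of all genes). At that setting 4.19% of all genes had a WT peak alone, against 1.62% with the full and longer HET list. The cut can only add to the Wnt genes with a WT peak alone. The Dkk3 peak of the WT list, chr7:112157931-112158230 on mm10, is 300 bases wide and is centred 0.977 kb inside the gene, at the edge of the window. The Wnt9a peak of the WT list spans -1850 to -893 bases from the start, with its centre outside the window. The Wnt7b peaks are also centred outside it, at -1004.5 bases in HET and -1023.5 in WT. The Wnt7a peak of the WT list covers the start (-465 to 283 bases). Wnt10a had no promoter peak in either list. Over the gene and 10 kb to either side, the listed peaks all lay beyond the gene's end. There were 2 in the WT list at 15.5 and 16.7 kb from the start and 1 in the HET list at 16.8 kb, with widths of 330, 403 and 150 bases. Regions farther away were not searched. Sfrp5 had no promoter peak. Fzd1 had a peak in both lists, 461 bases in HET and 621 bases in WT, with centres 174 bases before the start in HET and 109 bases after it in WT.

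**Figure D5:**
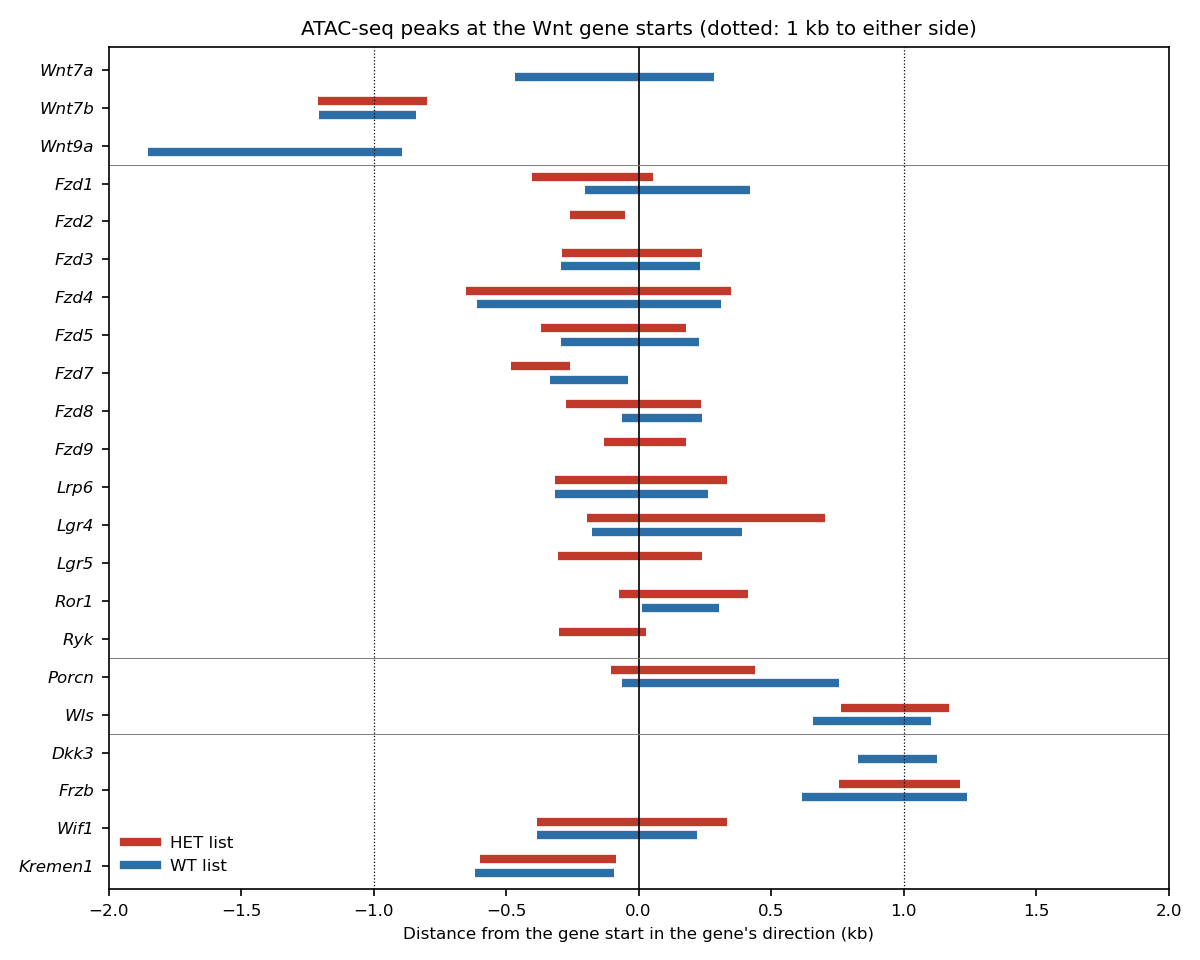
Bars give the extent of each listed ATAC-seq peak within 1 kb of a Wnt gene start, as distance in kb along the gene's direction, with the HET list above the WT list for each gene. Of the 22 genes with a peak 13 are receptors, 4 of these (Fzd2, Fzd9, Lgr5 and Ryk) have a HET bar alone, and Wnt7a, Wnt9a and Dkk3 have a WT bar alone.

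The 250 bases before the RefSeq start (GRCm38.p6) are printed for promoters on which the lists differed, and for Fzd1 and Sfrp5, a receptor and an antagonist described above for their RNA. The RefSeq start can differ from the gene start used for the peak distances above. That gene start is 135251230 for Fzd9, inside the printed stretch, and 4758035 for Fzd1, beyond the end of the printed stretch. Capitals mark bases inside the peak of the named list and lower case the bases outside it. Fzd9 (chr5:135251048-135251297, minus strand) and Ryk (chr9:102834670-102834919, plus strand) stand for peaks of the HET list alone, and Wnt7a (chr6:91411354-91411603, minus strand) for one of the WT list alone. The HET peaks of Fzd9 and Ryk, 311 and 331 bases wide, dropped out when the HET list was cut to its widest peaks. The HET peak of Lgr5, for which no promoter sequence was matched, stayed.
Fzd9, HET list: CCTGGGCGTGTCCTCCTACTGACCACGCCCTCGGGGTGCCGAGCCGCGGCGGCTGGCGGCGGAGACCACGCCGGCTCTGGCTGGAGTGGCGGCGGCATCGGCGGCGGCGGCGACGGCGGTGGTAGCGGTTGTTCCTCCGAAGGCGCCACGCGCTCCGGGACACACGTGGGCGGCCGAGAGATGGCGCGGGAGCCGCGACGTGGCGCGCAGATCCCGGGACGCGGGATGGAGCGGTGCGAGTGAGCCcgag
Ryk, HET list: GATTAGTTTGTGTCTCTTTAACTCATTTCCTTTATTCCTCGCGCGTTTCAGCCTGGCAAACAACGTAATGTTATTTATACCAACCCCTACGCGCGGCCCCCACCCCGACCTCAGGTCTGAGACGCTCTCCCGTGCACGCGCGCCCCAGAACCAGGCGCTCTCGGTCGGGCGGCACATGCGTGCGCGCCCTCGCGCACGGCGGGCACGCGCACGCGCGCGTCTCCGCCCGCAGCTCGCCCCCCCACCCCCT
Wnt7a, WT list: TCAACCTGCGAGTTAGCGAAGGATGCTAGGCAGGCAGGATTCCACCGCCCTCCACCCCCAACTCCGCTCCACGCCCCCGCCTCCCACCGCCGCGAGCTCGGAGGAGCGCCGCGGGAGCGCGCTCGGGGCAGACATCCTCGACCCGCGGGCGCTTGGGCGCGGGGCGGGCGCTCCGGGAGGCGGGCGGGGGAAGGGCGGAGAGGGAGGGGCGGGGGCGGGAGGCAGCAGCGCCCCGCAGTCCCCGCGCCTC
The Fzd9 stretch held 42 CpG pairs with 246 of its bases inside the peak, Ryk held 33 and Wnt7a 34, each with all 250 bases inside. Fzd1 (chr5:4758217-4758466, minus strand) is shown with the peak of either list, since 223 of these bases lay in the HET peak and 20 in the WT peak. Sfrp5 (chr19:42202253-42202502, minus strand) had none of its bases in a peak. They held 12 and 13 CpG pairs.
Fzd1, HET list: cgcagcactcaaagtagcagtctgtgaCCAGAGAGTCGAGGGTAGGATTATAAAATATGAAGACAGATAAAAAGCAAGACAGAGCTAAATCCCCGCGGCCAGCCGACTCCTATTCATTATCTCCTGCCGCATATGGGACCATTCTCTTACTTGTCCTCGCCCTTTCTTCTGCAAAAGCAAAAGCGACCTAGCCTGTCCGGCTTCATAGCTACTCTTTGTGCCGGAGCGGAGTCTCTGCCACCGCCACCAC
Fzd1, WT list: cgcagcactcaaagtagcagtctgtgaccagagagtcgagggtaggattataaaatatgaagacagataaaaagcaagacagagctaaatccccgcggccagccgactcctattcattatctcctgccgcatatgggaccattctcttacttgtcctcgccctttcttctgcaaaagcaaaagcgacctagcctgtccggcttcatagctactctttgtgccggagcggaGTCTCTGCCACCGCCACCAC
Sfrp5, no peak: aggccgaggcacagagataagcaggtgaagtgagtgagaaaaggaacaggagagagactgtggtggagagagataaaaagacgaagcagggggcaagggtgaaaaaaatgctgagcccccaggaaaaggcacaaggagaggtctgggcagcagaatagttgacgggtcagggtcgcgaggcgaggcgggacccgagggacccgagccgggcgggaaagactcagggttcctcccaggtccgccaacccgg
A promoter sequence of 300 bases, 250 before and 50 after the start, was matched for 38 of the 58 genes. Their median GC content was 67.7%, against 52.7% over 27025 promoters. Members with a peak held a median of 25 CpG pairs and members without one 27, against 7 over all promoters. The core CTTTGAT of TCF and LEF sites, searched on both strands, was in the window of 1 of 38 (Wnt11), or 2.63%, against 3.72% of all promoters. A match is a run of letters and not a bound site.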

How the data were processed

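The authors deposited raw counts per gene, 1 table per RNA library, made with featureCounts 2.0.1 over Ensembl release 102 exons with strand ignored, per the file headers, from paired reads counted as single mates. The deposited peak lists hold positions on mm10 without heights, from merged libraries of a genotype that the sources used here do not name. Bowtie2 2.4.4 and MACS3 were named for ATAC-seq, per the submitters' processing notes. Of the 55487 gene IDs, 55141 matched a symbol. Samples of Hi-C, PAT and Control were not analysed here.

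Genes kept by filterByExpr (18050) were fitted with edgeR 4.0.16 (TMM, quasi-likelihood, Benjamini-Hochberg adjustment over all genes; R 4.3.3). CPM used TMM library sizes, and RPKM divided CPM by the exon length of the count table. DESeq2 1.42.0, limma 3.58.1, its voom weights, 2 other filters, a replicate block, marker covariates, an adjusted p under 0.1, the libraries labelled polyA RNA and each library left out were alternatives. Fits without HET 1, HET 4 and WT 4 were added after seeing the data. The biological coefficient of variation was 0.248, and no pair of libraries agreed within counting noise (lowest chi-square per degree of freedom 10.2 over 91 pairs). The fitting script was tested on simulated data. P-values measure the spread between libraries, 7 mice per genotype per the labels' protocols.

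All 58 genes are accounted for by role. Full values were given for genes with an adjusted or unadjusted p under 0.05 and the 2 most abundant of each role by RPKM averaged over all 14 libraries, and up to 3 genes per pathway list. Ctnnb1, Axin2, Tcf7l2, Lef1, Sp5 and Ccnd1 of the pathway lists were given in addition. The members and lists were chosen with earlier results of these data known.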

Additional observations from a re-analysis of the deposited data

Results flagged for a closer look

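In 15 of 108 groups of 7 libraries (54 Wnt genes in 2 genotypes), 1 end library was separated from the nearest other library by more than 0.568 of the group's range, and in all 15 it was the highest. For normally distributed values chance flags about 1 in 20 groups with either end counted, and the share for skewed CPM values was not tested. Among HET libraries, HET 4 stood apart with 26.0 CPM of Wnt3, 10.4 CPM of Wnt9b, 12.1 CPM of Fzd10 and 9.90 CPM of Lgr6; it was also the library with the most thalamic and the least excitatory marker RNA. HET 6 stood apart with 26.7 CPM of Wnt9a and 9.59 CPM of Wnt10b, and HET 5 with 1.22 CPM of Wnt8b and 29.7 CPM of Kremen1. Among WT libraries, WT 7 stood apart with 12.01 CPM of Wnt3 and 4.33 CPM of Wnt9b, and WT 4 with 9.36 CPM of Sfrp5 and 1.46 CPM of Rspo4. WT 3 stood apart with 3.23 CPM of Wnt5b and 1.25 CPM of Wnt16, and WT 2 with 2.23 CPM of Wnt1.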

How the results depend on the processing

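The edgeR fit called 0 Wnt genes higher and 1 lower in HET, and 1 higher and 0 lower among the other pathway genes. DESeq2 called 3 higher and 2 lower Wnt genes and 7 higher and 3 lower others, limma-voom 5 and 2 and 6 and 5, and an adjusted p under 0.1 in edgeR 2 and 2 and 4 and 3, higher before lower each time. The shares called over all genes were 8.9%, 10.7% and 6.62% in that order, against 0.97% in the main fit. DESeq2 size factors and the filter of 1 CPM in 7 libraries left all 4 counts as they were (1.0% and 1.41% of all genes called). Without a filter 0 Wnt genes were lower (0.3% of all genes called). With the 3 marker covariates 0 Wnt genes were lower and 0 others higher, while 1 other, Igfbp4, was lower (0.127% of all genes called). HET 5 to HET 7 against all WT libraries gave 0 and 0 Wnt genes and 0 and 0 others, as did the fit without HET 1 and HET 4 (0.0211% and 0.0704% of all genes called). With WT 4 left out as well there were 1 higher and 2 lower Wnt genes, and 1 higher (Tnks) and 3 lower others (3.78% of all genes called). Leaving out single libraries gave 0 to 3 higher and 0 to 2 lower Wnt genes, and 0 to 7 higher and 0 to 4 lower others. The highest counts came without HET 6 (3 higher Wnt genes) and without WT 4 (3 higher and 2 lower Wnt genes, 7 higher and 4 lower others). The share called over all genes also rose in these fits, to 6.09% without HET 6 and 9.18% without WT 4. The cause was not tested.

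The replicate block gave 0 higher and 0 lower Wnt genes and 0 and 0 others (0.0554% of all genes called). Same-numbered libraries correlated between -0.28 and 0.33, which does not settle whether the numbers pair the mice. Of 500 fold changes of the 20 named Wnt genes under alternatives, 11 changed sign, in 6 genes, of which Frzb had the main value farthest from 0 (-0.50). With the marker covariates these were Wnt7b (0.0057), Fzd3 (0.083), Porcn (0.082), Rspo3 (0.094) and Frzb (0.016), and with HET 5 to HET 7 alone Fzd3 (0.020) and Porcn (0.047). Wls ran from -0.090 to 0.028 with single libraries left out. A promoter window of 500 bases left 1 gene with a WT peak alone, and the widest HET peaks in equal number left 1, Lgr5, with a HET peak alone. Low counts limit Wnt3a, Dkk1, Dkk4 and Sost, and 7 mice with a wide spread of regional markers limit Dkk3, Wnt10a and Sfrp5.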
